A study of Rattus norvegicus with 10 samples.

Results

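The data are the messenger RNA levels of 10 genes that mark microglia, the resident macrophages of the brain, in the prefrontal cortex of adult male rats that had gone through early life stress (ELS) and of control rats. The genes are the 3 chains of complement component C1q (C1qa, C1qb and C1qc) and 7 genes used to identify microglia (Cx3cr1, Csf1r, Aif1, Tmem119, P2ry12, Trem2 and Tyrobp). They were taken by symbol from the deposited table of 16041 genes, each symbol matched 1 row, and all 10 passed the filter on low values. There were 5 ELS and 5 control libraries from Sprague-Dawley rats, with tissue collected at postnatal day 91 in both groups. ELS was limited nesting, in which dam and pups have little nest material, from postnatal day 2 to day 9. The labels call the other group control and do not say whether rats shared litters or whether a sample pooled animals, so a p-value here speaks only of the spread among the samples taken, part of which may be technical. In a piece of tissue, fewer microglia and less of a transcript per microglial cell cannot be told apart.

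C1q is the recognition molecule of the classical complement pathway. A, B and C chains, each with a collagen-like stalk and a globular head, assemble in equal numbers into a bouquet that binds its target and activates the proteases C1r and C1s, and in the brain microglia are its main source. In mice C1q tags synapses for removal by microglia during development. The other genes cover survival (the colony-stimulating factor receptor Csf1r), sensing of neurons (the fractalkine receptor Cx3cr1 and the purine receptor P2ry12), lipid and debris sensing (Trem2 with its signalling adaptor Tyrobp) and widely used markers (the calcium-binding protein gene Aif1, which encodes Iba1, and the membrane protein gene Tmem119).

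The 3 C1q genes lie side by side on rat chromosome 5, in the order C1qb, C1qc, C1qa, in the RefSeq annotation of the GRCr8 build. RefSeq promoters of GRCr8, each running from 250 bases before to 50 bases after the gene's start, were at hand for 5 of the 10 genes (C1qa, C1qb, Cx3cr1, Csf1r and Trem2). Those of C1qb (chr5:154407778-154408077, minus strand) and C1qa (chr5:154419884-154420183, minus strand) are shown because they belong to the same gene cluster and differ in the motif searched for. Capitals mark GAGGAA, the core bound by PU.1, the transcription factor that drives the myeloid lineage, on either strand (TTCCTC where it lies on the other strand), and each motif was searched on both strands.
C1qb: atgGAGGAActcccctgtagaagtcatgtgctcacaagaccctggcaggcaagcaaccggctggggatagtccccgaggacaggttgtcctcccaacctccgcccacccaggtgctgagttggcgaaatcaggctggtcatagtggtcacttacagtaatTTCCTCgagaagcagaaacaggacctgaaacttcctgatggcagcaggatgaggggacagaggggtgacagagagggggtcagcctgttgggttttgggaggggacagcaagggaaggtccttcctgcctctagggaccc
C1qa: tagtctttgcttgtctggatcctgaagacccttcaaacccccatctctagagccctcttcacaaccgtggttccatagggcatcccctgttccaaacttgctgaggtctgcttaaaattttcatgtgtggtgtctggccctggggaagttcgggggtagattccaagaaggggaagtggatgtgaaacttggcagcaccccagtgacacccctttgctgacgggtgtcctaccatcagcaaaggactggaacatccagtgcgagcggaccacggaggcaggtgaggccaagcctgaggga
The C1qb promoter held GAGGAA at 2 places, beginning 247 and 90 bases before the gene's start, and the C1qa promoter at none. Csf1r held it at 2 places and Trem2 at 1 place, and Cx3cr1 at none, so that 3 of the 5 promoters had a match, against 27.6% of all 33469 promoters searched. The composite element of PU.1 and interferon regulatory factors was in 0 of the 5 and in 2.94% of all promoters. The MEF2 element was in 1 of the 5 (Cx3cr1) and in 3.84% of all, and the TATA box (TATAAA) in 0 of the 5 and 14.2% of all. These are matches of letters within a window, and the files used here hold no binding data.

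Levels are given as RPKM, reads scaled to the length of the gene model and to the library total, listed in the order of replicates 1 to 5. Library totals were 18838898 to 22311136 reads. Differences between ELS and control are log2 fold changes of RPKM + 0.1, from a limma fit over all 14642 genes tested, with p-values adjusted over all of them. In that fit 0 genes passed an adjusted p of 0.05 (a background of 0%), while 2988 had an unadjusted p under 0.05. Limma-voom on the reads recovered from the RPKM values also called 0 genes. A pair of libraries is singled out, for different reasons. Control replicate 4 had the lowest quality weight, 0.17, in limma-voom with sample weights. Mef2c, a transcription factor gene of cortical neurons and microglia, was at 14.2 RPKM in control replicate 4 and at 83.1 to 88.0 RPKM in the other controls, against 89.3 to 100.7 RPKM in the ELS libraries. Cortical neuron markers in control replicate 4 went both ways: Slc17a7 (426.6 RPKM) and Camk2a (963.7 RPKM) were the highest of the controls, and Snap25 (542.1 RPKM) and, named after its values were seen, Tbr1 (9.37 RPKM, against 23.1 to 31.9 RPKM in the other controls) the lowest. ELS replicate 2 is singled out by the number of calls alone, since the count of called genes was 444 without it. Its quality weight was 0.862, close to that of control replicate 3 (0.868). Values without ELS replicate 2 are therefore chosen by their outcome and are no independent check. For the 10 genes, values without ELS replicate 2 or control replicate 4 are given where they change a call or move the value by over 1.5 times.

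All 10 genes had a lower mean in ELS, and 0 of the 10 passed the adjusted threshold. At an unadjusted p under 0.05, 5 of the 10 were lower in ELS (C1qa, C1qb, C1qc, Aif1 and Tmem119), against 10.3% of all genes tested, and 0 of the 10 were higher, against 10.1%. At that cutoff 12 of 12 oligodendrocyte markers and 6 of 10 astrocyte markers were lower too. The groups did not overlap in 2 of the 10, C1qb and C1qc, where every ELS library lay below every control library, as it did in 2.60% of all genes. The C1q chains had a median log2 fold change of -0.30 and the identity markers one of -0.17, against 0.0037 over all genes tested. Of all genes, 49.4% had a log2 fold change below 0.

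**Figure D1:**
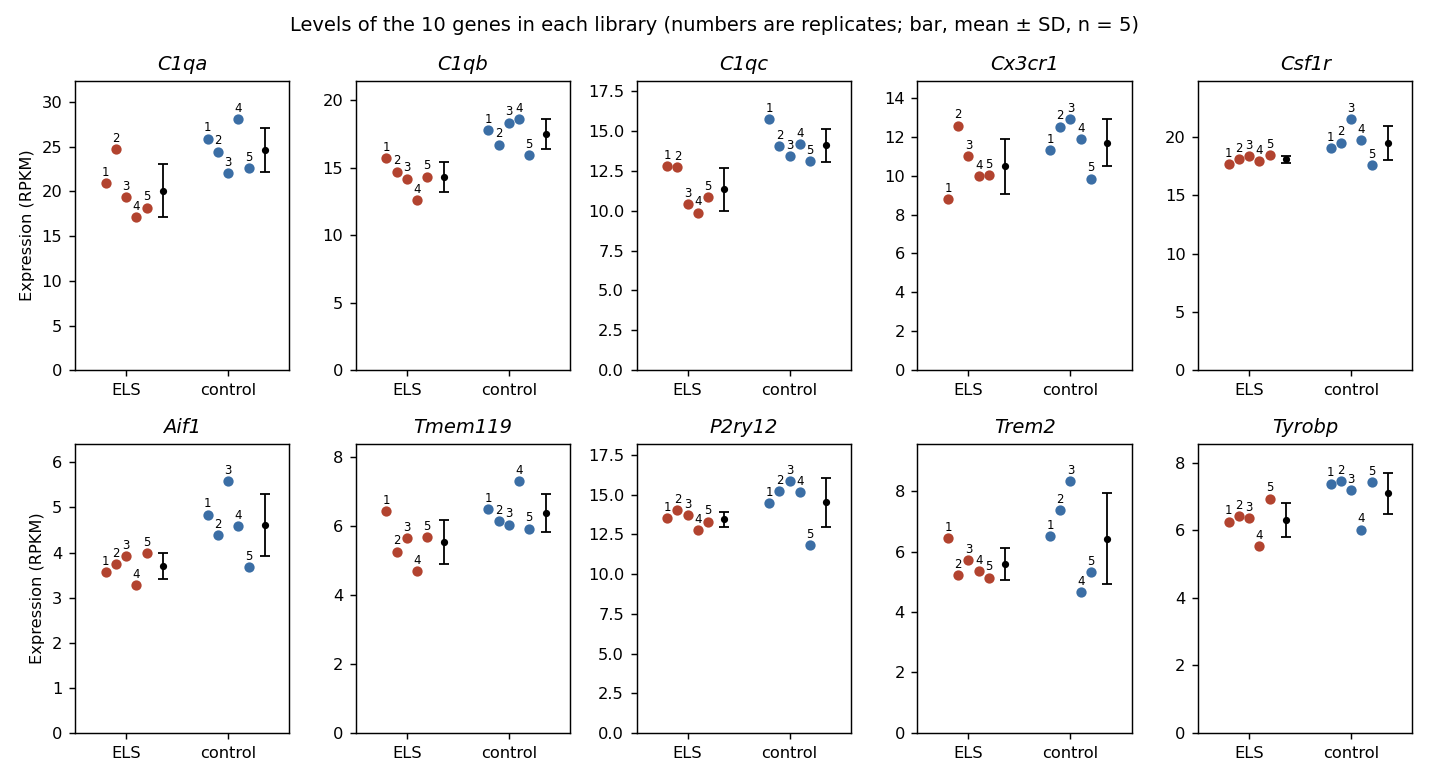
RPKM of each gene (vertical axes, starting at 0) in the 5 ELS libraries (red) and the 5 control libraries (blue), with replicate numbers beside the points and the mean ± SD of each group as a black point and bar. In C1qb the ELS libraries reach at most 15.7 RPKM and the controls start at 15.96, and in C1qc the corresponding values are 12.8 and 13.1, whereas the groups overlap in the other 8 genes.

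C1qa, the A chain, was at 21.0, 24.8, 19.4, 17.1 and 18.2 RPKM in ELS libraries, against 25.9, 24.5, 22.03, 28.1 and 22.6 RPKM in controls. ELS replicate 2 lay within the control range and the other 4 ELS libraries lay below every control. Means were 20.1 ± 2.98 RPKM in ELS and 24.6 ± 2.49 RPKM in controls (SD, n = 5 each), which corresponds to a log2 fold change of -0.30 with an SE of 0.10 (limma, adjusted p = 0.165). ELS replicate 2 had the most C1qa of the ELS libraries and control replicate 4 the most of the controls. Without ELS replicate 2 the log2 fold change of C1qa was -0.38 and its adjusted p 0.0467, and without control replicate 4 these were -0.25 and 0.191. Leaving out ELS replicate 2 gave 444 calls among the 14642 genes tested, and leaving out control replicate 4 gave 0. Over all 21 alternative settings the adjusted p of C1qa ranged from 0.0310 to 0.326.

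C1qb, the B chain, was at 15.7, 14.7, 14.2, 12.6 and 14.3 RPKM in ELS libraries, against 17.8, 16.7, 18.3, 18.6 and 15.96 RPKM in controls. The groups did not overlap, with ELS replicate 1 and control replicate 5 closest to each other. The log2 fold change was -0.29 ± 0.07 (SE) in limma (adjusted p = 0.133), and an exact permutation test of this gene alone gave p = 0.00794, two-sided, the smallest that 5 against 5 libraries can give. C1qb had the smallest unadjusted p of the 10 genes, 0.00115.

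C1qc, the C chain, was at 12.8, 12.7, 10.4, 9.87 and 10.9 RPKM in ELS libraries, against 15.8, 14.0, 13.4, 14.1 and 13.1 RPKM in controls. Again no ELS library reached the lowest control, although ELS replicates 1 and 2 came close to it. The log2 fold change was -0.32 ± 0.08 (SE) in limma (adjusted p = 0.133), the steepest of the 10. The exact permutation p was 0.00794, two-sided, again fixed by the lack of overlap. Without ELS replicate 2 the adjusted p of C1qb was 0.0578 and that of C1qc 0.0515, and without control replicate 4 they were 0.0977 and 0.111, so neither setting called these chains. With sample weights in limma-voom the adjusted p was 0.0447 for C1qa, 0.0347 for C1qb and 0.0335 for C1qc, and with ELS replicate 2 and control replicate 4 both left out it was 0.0310 for C1qa, 0.0501 for C1qb and 0.0417 for C1qc. Of the 14642 genes tested, 942 were called with sample weights and 1116 with both libraries left out.

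The proportions of the chains were much alike in the 2 groups. C1qa made up 43.8% ± 2.19 of the summed RPKM of the chains in ELS and 43.8% ± 1.88 in controls, C1qb 31.4% ± 1.88 in ELS and 31.1% ± 1.69 in controls, and C1qc 24.8% ± 0.813 in ELS and 25.1% ± 1.196 in controls (SD, n = 5 each). Each difference in share was smaller than the spread between libraries, and the ranges of the groups overlapped for every chain. The RPKM of C1qa was 1.77 ± 0.130 times that of C1qc in ELS and 1.75 ± 0.142 times in controls. These are ratios of RNA between different gene models. The equal numbers of chains given above are those of the protein, which was not measured here. The chains also varied together across the 10 libraries, with Pearson's r of 0.81 to 0.90 and Spearman's rho of 0.78 to 0.94 for the 3 pairs, and r of 0.58 to 0.79 once each group's mean was removed. Libraries share depth and tissue make-up across genes, so these correlations are descriptions, given without a p.

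Csf1r, the receptor kinase on which microglial survival depends, was at 17.7, 18.1, 18.3, 17.9 and 18.4 RPKM in ELS libraries, against 19.0, 19.5, 21.5, 19.7 and 17.6 RPKM in controls. The ELS libraries lay close together, and 4 of the 5 controls were above all of them while control replicate 5 was below all of them. Csf1r had a log2 fold change of -0.10 ± 0.05 (SE) in limma (adjusted p = 0.287), with a 95% interval of -0.22 to 0.01. The log2 fold change of Csf1r was -0.07 (adjusted p = 0.430) without control replicate 3. This gene had the most reads, 1356 to 1749 per library, for which counting alone gives an error of about 2.57%. Its coefficient of variation was 1.63% in ELS and 7.30% in controls. Of its ligands, Il34 was at 21.2 ± 0.981 RPKM in ELS and 20.3 ± 3.02 RPKM in controls (adjusted p = 0.718), and Csf1 at 1.46 ± 0.0967 RPKM in ELS and 1.98 ± 0.622 RPKM in controls (adjusted p = 0.269; SD, n = 5 each; limma). Of the controls, 4 were above every ELS library for Csf1. The highest Csf1 value, 3.01 RPKM, and the lowest Il34 value, 15.3 RPKM, were both in control replicate 4.

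Cx3cr1, the receptor for the neuronal chemokine fractalkine, was at 8.81, 12.6, 10.99, 9.98 and 10.04 RPKM in ELS libraries, against 11.3, 12.5, 12.9, 11.9 and 9.85 RPKM in controls. The groups overlapped over most of their range, with ELS replicate 2 among the highest and control replicate 5 among the lowest. Cx3cr1 had a log2 fold change of -0.16 ± 0.10 (SE) in limma (adjusted p = 0.383), with a 95% interval of -0.38 to 0.06. The log2 fold change of Cx3cr1 was -0.10 (adjusted p = 0.591) without ELS replicate 1 and -0.23 (adjusted p = 0.174) without ELS replicate 2. The gene for its ligand, Cx3cl1, had the opposite sign, at 173.9 ± 18.2 RPKM in ELS and 142.2 ± 29.3 RPKM in controls (SD, n = 5 each), with a log2 fold change of 0.31 ± 0.14 (SE) in limma (adjusted p = 0.242). Cx3cl1 was lowest, at 100.6 RPKM, in control replicate 4, and its groups overlapped.

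P2ry12, the receptor for adenosine diphosphate that guides microglial processes, was at 13.5, 14.0, 13.7, 12.8 and 13.3 RPKM in ELS libraries, against 14.5, 15.2, 15.8, 15.2 and 11.8 RPKM in controls. As with Csf1r, 4 controls were above every ELS library and control replicate 5 was below every one. P2ry12 had a log2 fold change of -0.10 ± 0.07 (SE) in limma (adjusted p = 0.467), with a 95% interval of -0.27 to 0.06. Without control replicate 5 the log2 fold change of P2ry12 was -0.17 and its adjusted p 0.114, and without control replicate 3 these were -0.07 and 0.648. The adjusted p lay in a range of 0.114 to 0.653 over the alternatives.

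Trem2, a receptor for lipids and lipoproteins, was at 6.44, 5.23, 5.72, 5.35 and 5.14 RPKM in ELS libraries, against 6.51, 7.37, 8.32, 4.65 and 5.31 RPKM in controls. The controls spread from the lowest value, in replicate 4, to the highest, in replicate 3, and enclosed all the ELS libraries. The log2 fold change was -0.18 ± 0.15 (SE) in limma (adjusted p = 0.516), the widest error of the 10 genes. Leaving out control replicate 3 gave -0.08 for Trem2 (adjusted p = 0.774), leaving out control replicate 4 gave -0.28 (adjusted p = 0.209), and the value was -0.29 (adjusted p = 0.151) with sample weights in limma-voom. Tyrobp, the adaptor through which Trem2 signals, was at 6.26, 6.43, 6.35, 5.53 and 6.94 RPKM in ELS libraries, against 7.38, 7.45, 7.19, 6.02 and 7.42 RPKM in controls. Of the controls, 4 were above every ELS library and control replicate 4 was below all ELS libraries but replicate 4. In Tyrobp the log2 fold change was -0.17 ± 0.08 (SE) in limma (adjusted p = 0.264). Leaving out control replicate 4 gave -0.22 for Tyrobp (adjusted p = 0.115). Tyrobp rested on 70 to 99 reads per library, a counting error of about 11.1%, above its coefficient of variation of 8.03% in ELS and 8.56% in controls. The ratio of Trem2 to Tyrobp was 0.890 ± 0.115 in ELS and 0.904 ± 0.176 in controls (SD, n = 5 each), within the spread between libraries.

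Aif1, whose protein Iba1 is the common stain for microglia, was at 3.57, 3.75, 3.93, 3.28 and 3.98 RPKM in ELS libraries, against 4.84, 4.39, 5.58, 4.58 and 3.67 RPKM in controls. All controls but replicate 5 were above every ELS library. Its log2 fold change of -0.30 ± 0.11 (SE) in limma (adjusted p = 0.170) was as large as those of the C1q chains. Tmem119, a gene that separates microglia from other macrophages, was at 6.45, 5.27, 5.65, 4.70 and 5.68 RPKM in ELS libraries, against 6.503, 6.15, 6.05, 7.30 and 5.93 RPKM in controls. Only ELS replicate 1 reached the control range. The log2 fold change of Tmem119 was -0.20 ± 0.09 (SE) in limma (adjusted p = 0.235), with a 95% interval of -0.40 to -0.005. The exact permutation test of Tmem119 alone gave p = 0.0556, two-sided.

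**Figure D2:**
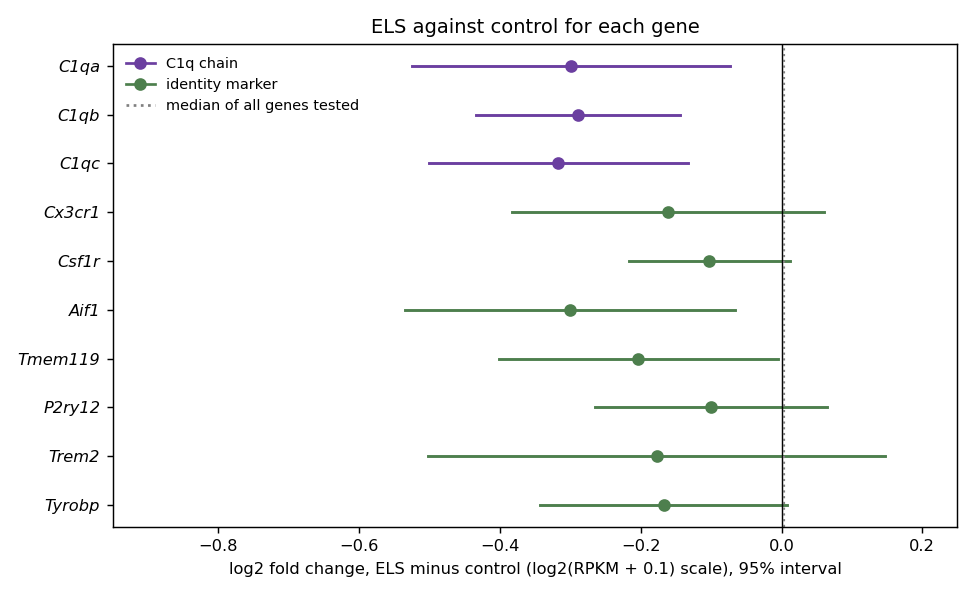
Log2 fold change of ELS against control with its 95% interval from limma (horizontal axis) for the C1q chains (purple) and the identity markers (green). All 10 points lie below 0, and the 7 identity markers run from -0.30 (Aif1) to -0.10 (P2ry12) while the chains lie between -0.32 and -0.29.

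C1q and the identity markers were compared by their ratio within each library, as a description without a test. The summed level of the chains was 49.4, 52.2, 44.0, 39.6 and 43.4 RPKM in ELS libraries, against 59.4, 55.2, 53.8, 60.9 and 51.7 RPKM in controls. ELS replicate 2 was just above control replicate 5, and the other libraries kept the groups apart. The summed level of the identity markers was 62.8, 65.3, 64.7, 59.5 and 63.5 RPKM in ELS libraries, against 70.1, 72.6, 77.5, 69.3 and 61.6 RPKM in controls, where control replicate 5 lay among the ELS libraries. The mean summed level in ELS differed from that in controls by -18.7% for the chains and by -10.04% for the markers.

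On the log2 scale the mean of the chains minus the mean of the markers was 1.02, 1.05, 0.81, 0.82 and 0.82 in ELS libraries, against 1.10, 0.95, 0.83, 1.18 and 1.09 in controls. ELS replicates 1 and 2 had ratios like the controls, control replicate 3 had a ratio like the other ELS libraries, and the groups overlapped. The averages were 0.90 ± 0.12 in ELS and 1.03 ± 0.14 in controls (SD, n = 5 each), a difference of -0.13 against a spread within groups of 0.129. That spread is the SD of single libraries and not the error of a difference between means. Whether C1q differed between the groups more than the identity markers did was not tested. The difference was -0.16 without ELS replicate 2 and -0.09 without control replicate 4.

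**Figure D3:**
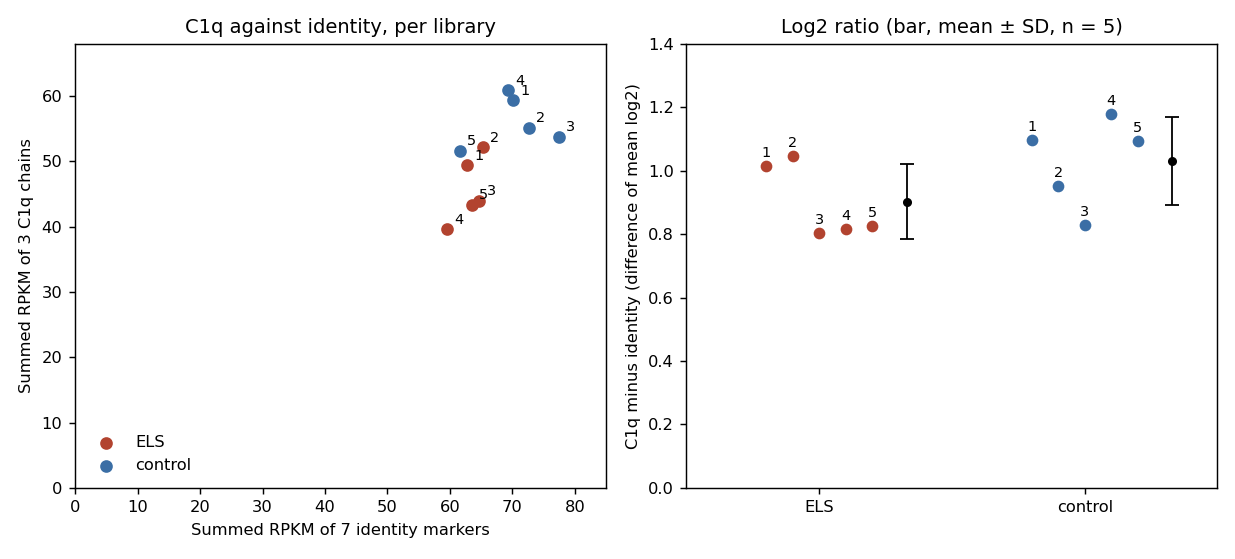
Left, summed RPKM of the 3 C1q chains (vertical axis) against that of the 7 identity markers (horizontal axis), 1 point per library, ELS in red and control in blue, labelled by replicate. Right, the log2 ratio of the chains to the markers per library with mean ± SD, 0.90 ± 0.12 in ELS and 1.03 ± 0.14 in controls, where the groups overlap.

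The 10 genes did not all point to the same libraries. ELS replicate 4 was the lowest of the 10 libraries in 6 genes and the lowest ELS library in 7. Control replicate 5 was the lowest control in 7 genes. No ELS library was the highest of the 10 in any gene, whereas control replicate 3 was highest in 5 and control replicate 4 in 3. The correlation across the 10 libraries had its highest r between Csf1r and Aif1 (r = 0.92, rho = 0.92; r = 0.88 once group means were removed) and its highest rho between C1qb and C1qc (r = 0.89, rho = 0.94). Between chains and identity markers r had a median of 0.53 over 21 pairs, from 0.06 (C1qa and Trem2) to 0.87 (C1qb and Tmem119), and the median was 0.19 once group means were removed. Among the 21 pairs of identity markers the medians were 0.53 and 0.32.

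Per length, C1qa was the most abundant of the 10 on average over the 10 libraries, at 22.4 RPKM, followed by Csf1r at 18.8, C1qb at 15.9, P2ry12 at 14.0, C1qc at 12.7, Cx3cr1 at 11.1, Tyrobp at 6.70, Trem2 at 6.005, Tmem119 at 5.97 and Aif1 at 4.16 RPKM. Some steps of this order held in every library: Csf1r was above C1qb, Cx3cr1 above Tyrobp and Tmem119 above Aif1 in 10 of 10. C1qa exceeded Csf1r in 3 of 5 ELS libraries and in 5 of 5 controls, and C1qc exceeded Cx3cr1 in 3 of 5 ELS libraries and in 5 of 5 controls. Trem2 and Tmem119 were not separated, each being the higher in 5 of 10 libraries.

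The genes whose profile over the 10 libraries was most like the mean of the C1q chains, out of 14632 ranked, were Calcrl (r = 0.96), a receptor subunit for calcitonin gene-related peptide and adrenomedullin, Mir186 (0.96), Anp32b (0.95), AC096239.2 (0.94) and Haus6 (0.94). Mir186, a gene model of 86 bases, rested on 33 to 98 reads per library. The libraries were made from messenger RNA, so its value is no measure of the mature microRNA. The rho values of these 5 genes lay between 0.94 and 0.99, and r stayed between 0.91 and 0.96 without ELS replicates 4 and 5, the libraries farthest from the median C1q level. In each of the 5 every ELS library lay below every control, against 2.60% of all genes tested, so r includes the difference between the groups. Their r with group means removed was not computed. For the identity markers they were the ribosomal protein gene Rpl30 (r = 0.96), AABR07043823.1 (0.95), the mitochondrial gene Mt-atp6 (0.95), Cd99 (0.92) and Aifm3 (0.92). AABR07043823.1 rested on only 5 to 14 reads per library. Without control replicates 3 and 2, the farthest from the median identity level, r was lowest for Cd99 (0.79) and Mt-atp6 (0.87) and highest for AABR07043823.1 (0.95). None of these 10 is among the microglial lists examined here. They are the extremes of a ranking of many genes over few libraries and carry no p.

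Downstream of C1q, those transcripts of the classical cascade that were in the table were scarce. Of 13 genes of the cascade, 7 were in the table and 6 were tested, 0 passed, and their median log2 fold change was -0.22. C4b, C5, C6, C8a, C8b and C9 were not in the table, so their levels are not known here. The proteases that C1q activates were C1r, at 3.22 ± 0.400 RPKM in ELS and 3.82 ± 0.678 RPKM in controls (adjusted p = 0.321), and C1s, at 1.14 ± 0.129 RPKM in ELS and 1.495 ± 0.279 RPKM in controls (adjusted p = 0.217; SD, n = 5 each; limma). C3, the central component, was at 0.853 ± 0.309 RPKM in ELS and 1.21 ± 0.390 RPKM in controls (adjusted p = 0.331). C4a was at 0.513 ± 0.0621 RPKM in ELS and 0.515 ± 0.0365 RPKM in controls, and C2, which did not pass the filter on low values, at 0.498 ± 0.166 RPKM in ELS and 0.562 ± 0.272 RPKM in controls. C8g, which encodes a chain of the terminal complex, was at 3.51 ± 0.537 RPKM in ELS and 3.50 ± 0.729 RPKM in controls. The summed level of the cascade was 9.67 to 10.8 RPKM in ELS and 10.3 to 13.97 RPKM in controls, with overlap.

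Among 23 complement regulators and receptors, 18 were tested and 0 passed, with a median log2 fold change of -0.13. The most abundant were Clu, which encodes the chaperone clusterin, at 310.6 ± 20.9 RPKM in ELS and 320.9 ± 17.7 RPKM in controls, the calreticulin gene Calr at 152.5 ± 13.5 RPKM in ELS and 150.9 ± 17.6 RPKM in controls, and Cd59, an inhibitor of the terminal complex, at 44.5 ± 2.30 RPKM in ELS and 44.9 ± 3.62 RPKM in controls (SD, n = 5 each). These 3 differed by less than the spread between libraries. Susd4, which encodes a membrane regulator of complement and is named here after its values were seen, went the other way from C1q, at 40.8 ± 2.37 RPKM in ELS and 34.7 ± 2.32 RPKM in controls (log2 fold change 0.23 ± 0.06, SE; limma adjusted p = 0.133). All 5 ELS libraries had more Susd4 than every control, as did 3.08% of all genes tested.

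Of 30 other genes of microglia and related myeloid cells, 28 were tested and 0 passed. Their median log2 fold change was -0.19, with 22 of 28 below 0, and at an unadjusted p under 0.05 there were 8 of 28 lower and 0 of 28 higher, against 10.3% and 10.1% of all genes tested. Mef2c, given above, and Ctss were among the most abundant. The lysosomal protease gene Ctss was at 76.5 ± 9.28 RPKM in ELS and 88.7 ± 9.56 RPKM in controls (SD, n = 5 each; limma, adjusted p = 0.243). Named after their values were seen, Tgfbr1, Laptm5, Sall1 and Irf8 were the 4 genes of this list in which every ELS library lay below every control, against 2.60% of all genes, and Mef2c was the 1 gene in which every ELS library lay above, against 3.08%. The 4 lower genes had log2 fold changes of -0.31, -0.23, -0.30 and -0.24 and adjusted p-values of 0.133 to 0.236. Sall1 and Irf8 encode transcription factors of microglia, Tgfbr1 a receptor for the transforming growth factor that maintains their identity, and Laptm5 a lysosomal protein of blood-lineage cells. Spi1, which encodes PU.1 and is also named after its values were seen, was at 1.13 ± 0.255 RPKM in ELS and 1.19 ± 0.244 RPKM in controls (SD, n = 5 each).

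Genes that activated microglia express had mostly negative log2 fold changes. Of 25 listed, 16 were tested, 14 had a log2 fold change below 0, 0 passed, and the median was -0.22. At an unadjusted p under 0.05, 6 of 16 were lower and 0 of 16 higher, against 10.3% and 10.1% of all genes tested. The lysosomal protease genes Ctsb and Ctsd, the most abundant of the list beside Apoe, had higher means in ELS, at 166.0 ± 8.40 and 92.9 ± 5.49 RPKM, against 158.4 ± 3.32 and 87.1 ± 3.18 RPKM in controls (SD, n = 5 each; limma, adjusted p = 0.380 and 0.304). Apoe, a lipid carrier that astrocytes make as well, was at 811.5 ± 54.9 RPKM in ELS and 947.7 ± 125.5 RPKM in controls (adjusted p = 0.201), highest in control replicate 4. Among 17 ligands and signalling partners of the identity receptors, 16 were tested, 0 passed, and the median was 0.06. The most abundant after Apoe were Cst3, a protease inhibitor, at 805.7 ± 68.4 RPKM in ELS and 914.2 ± 54.2 RPKM in controls (SD, n = 5 each; limma, adjusted p = 0.167), and Cx3cl1, given above.

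**Figure D4:**
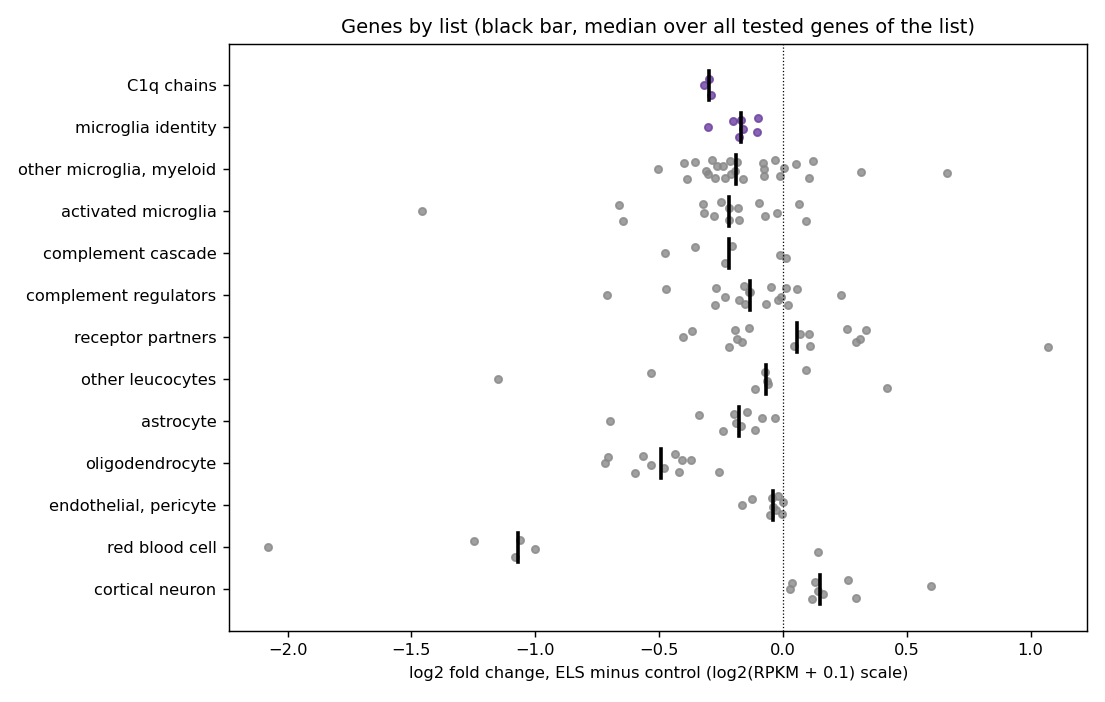
Log2 fold change of ELS against control (horizontal axis) for the genes of each list that are reported here, with the C1q and identity genes in purple, other lists in grey and the median over all tested genes of each list as a black bar. The medians lie between -0.30 and -0.17 for the microglial lists and at -0.49 for oligodendrocytes, -1.07 for red blood cells and 0.15 for cortical neurons.

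Markers of other cell types also differed in summed level between the groups. The summed level of 12 oligodendrocyte markers was 905.6 to 1191.0 RPKM in ELS and 1205.2 to 2453.8 RPKM in controls, with 12 of 12 log2 fold changes below 0, 0 adjusted calls and a median log2 fold change of -0.49. Mbp and Cnp were among the most abundant, with Mbp, which encodes myelin basic protein, at 388.3 ± 46.2 RPKM in ELS and 656.8 ± 236.3 RPKM in controls (SD, n = 5 each). Without control replicate 4, the other controls spanned 1205.2 to 1541.5 RPKM for the sum and 467.7 to 635.1 RPKM for Mbp. The sum of 10 astrocyte markers was 1147.4 to 1288.6 RPKM in ELS and 1313.2 to 1559.7 RPKM in controls, with 10 of 10 below 0, 0 adjusted calls and a median of -0.18, close to that of the identity markers. The sum of the 6 measured rows of red blood cell genes was 215.9 to 438.7 RPKM in ELS and 418.2 to 990.3 RPKM in controls, with 0 adjusted calls and a median of -1.07. Cortical neuron markers went the other way, at 2478.3 to 2858.4 RPKM in ELS and 2213.4 to 2421.2 RPKM in controls, with 10 of 10 above 0, 0 adjusted calls and a median of 0.15. At an unadjusted p under 0.05, 12 of 12 oligodendrocyte, 6 of 10 astrocyte and 4 of 6 red blood cell rows were lower in ELS. The share over all genes tested was 10.3%. Of the cortical neuron markers 3 of 10 were higher, against 10.1% of all genes. Every ELS library lay below every control in 6 of 12 oligodendrocyte and 2 of 10 astrocyte markers, against 2.60% of all genes. The part of these cell types in the lower microglial levels was not tested.

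Markers of other leucocytes, which can express Tyrobp and, in macrophages, C1q too, overlapped between the groups. Of 20 such markers 9 were in the table and 8 were tested. Of the 8 tested, 6 had a log2 fold change below 0, 0 passed, and the median was -0.07. Their sum was 28.2 to 35.9 RPKM in ELS and 20.4 to 37.0 RPKM in controls. Lyz2, a lysozyme gene that microglia express too, made up most of it, at 24.6 ± 2.20 RPKM in ELS and 23.4 ± 4.74 RPKM in controls (SD, n = 5 each). Mrc1, which marks perivascular macrophages, was at 0.988 ± 0.187 RPKM in ELS and 1.11 ± 0.489 RPKM in controls, and Pf4 at 2.97 ± 0.544 RPKM in ELS and 2.49 ± 1.61 RPKM in controls (SD, n = 5 each). Each of the 9 was above 0 in every library. Endothelial and pericyte markers had a median of -0.04 over 9 tested, with 9 of 9 log2 fold changes below 0 and 0 at an unadjusted p under 0.05. Flt1, Rgs5 and Slco1a4 differed by less than the spread between libraries.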

How the data were processed

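Libraries were made with a TruSeq stranded mRNA kit after column extraction and DNase treatment, per the labels' protocols. STAR, featureCounts and rn6 are named in the submitters' processing notes, while the strand setting and the annotation were not given in the sources used here, so reads of overlapping or antisense genes could be shared. The authors deposited RPKM values for 16041 genes, with no further scaling between libraries recorded (whether fragments or reads were counted is not stated). Whole reads were recovered for 16015 genes, 100% of those above 0, with a tolerance of 0.002 reads. The unit is not counts, so no count model was the main test.

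A pseudocount of 0.1 was added before taking log2, and the 14642 genes reaching 0.5 RPKM in 5 libraries entered limma 3.58.1 (R 4.3.3), trend and robust moderation, two-sided, Benjamini-Hochberg adjusted, threshold 0.05. Single genes were also tested by exact permutation over all assignments of the libraries. The procedure was tested on simulated data, with the same spread setting for all genes and no outlying library. That test does not cover a library such as control replicate 4. Symbols come from the table, and coordinates and promoters from RefSeq (GRCr8). Counting errors cover counting only. Columns of other samples numbered 0.

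The 10 genes and all lists were chosen with earlier results of these data known. Named besides them were the 3 most abundant genes of each list (some are not reported here), every gene past the threshold, fixed complement genes and ligands, and the 5 genes most like each profile. Alternatives were the pseudocount, filter, scaling, moderation, limma-voom with and without sample weights, a replicate block and leaving out libraries.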

Additional observations from a re-analysis of the deposited data

Results flagged for a closer look

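Within groups of 5 libraries, a value was singled out where its gap to the nearest other library exceeded 0.71 of the group's range, which chance alone does for about 1 group in 20. Of 144 groups examined, 12 gave such a value.

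Among the 10 genes, Tyrobp was at 6.02 RPKM in control replicate 4, against 7.19 to 7.45 RPKM in the other controls. The share of C1qb in the summed C1q level was 28.2% in ELS replicate 2, against 31.7% to 33.04% in the other ELS libraries, and 34.1% in control replicate 3, against 29.9% to 30.9% in the other controls. Both shares went with an opposite deviation of C1qa, whose share was 47.5% in ELS replicate 2 and 41.0% in control replicate 3.

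Control replicate 4 held 5 of the other values: 14.2 RPKM for Mef2c, 1066 for Mbp, 426.6 for Slc17a7, 963.7 for Camk2a and 2454 for the summed oligodendrocyte markers, the Mef2c value low and the rest high among controls. C1r was high at 4.98 RPKM in control replicate 1 and Pf4 at 5.23 RPKM in control replicate 3. Il34 was low at 19.5 RPKM in ELS replicate 2 and Aifm3 at 16.8 RPKM in ELS replicate 4.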

How the results depend on the processing

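The direction of all 10 genes was the same, lower in ELS, under each of the 21 alternatives run, and the median log2 fold change of the C1q chains stayed between -0.36 and -0.24 and that of the identity markers between -0.22 and -0.12. The count of the 10 genes past the adjusted threshold was 0, and 0 to 1 when each library was left out, the 1 being C1qa without ELS replicate 2. It was 3 (the C1q chains) by limma-voom with sample weights and 2 (C1qa and C1qc) with ELS replicate 2 and control replicate 4 both left out. Over all 14642 genes tested in these settings the count was 0 to 444 when each library was left out (444 without ELS replicate 2 and 1 without ELS replicate 5), 942 with sample weights and 1116 without that pair. The cause was not tested. The log2 ratio of chains to markers differed by -0.18 to -0.09 with each library left out. With the replicate number as a block 0 genes passed and the lowest adjusted p of the 10 was 0.222, but same-numbered libraries did not deviate together (r of -0.08 to 0.07), so the numbers give no pairing. Depth limits Tyrobp, Trem2 and Aif1 most, at 70 to 199 reads per library.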

Other observations

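A pair of genes outside the rule for naming varied widely. Spp1, which encodes osteopontin and is expressed by activated microglia among other cells, was at 0.269 to 1.10 RPKM in ELS libraries, against 0.177 to 8.18 RPKM in controls, with 8.18 and 3.65 RPKM in control replicates 2 and 3. Cd200r1, the microglial receptor for the neuronal protein CD200, was at 1.84 to 3.27 RPKM in ELS libraries, against 0.0887 to 2.54 RPKM in controls, the lowest being control replicate 4. The gene of its ligand, Cd200, was at 28.8 RPKM in control replicate 4 and at 41.4 to 46.5 RPKM in the other controls, against 45.5 to 51.3 RPKM in ELS libraries.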
